A study of Bos taurus with 40 samples.

Results

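The genes described here were ADIPOQ (ENSBTAG00000019813), which encodes the hormone adiponectin, and FABP4 (ENSBTAG00000037526), which encodes the fatty acid binding protein of fat cells. They were 2 of the 24616 genes counted in muscle biopsies of 20 Holstein-Friesian bulls and were chosen by their identifiers, as genes by which fat cells in a muscle sample are usually recognised. The biopsies came from 4 groups of 10 libraries. Restricted bulls of period 1 were sampled on day 120 of a limited feed allowance that lasted 125 days and aimed at 0.6 kg of daily gain. Control bulls of period 1 were sampled on the same day with free access to feed. Previously restricted bulls of period 2 were sampled on day 15 of a 55-day phase of free feeding that followed the restriction, and control bulls of period 2 on that day after free feeding throughout. The ration was 70% concentrate and 30% grass silage for all animals. The labels number 10 bulls in each feeding group at both times, and equal numbers were taken to mark 2 biopsies of the same bull. For control bulls the check described below does not settle this pairing.

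Adiponectin is secreted almost only by fat cells. It circulates as trimers and larger complexes and acts on receptors in muscle and liver, where it activates AMP-activated protein kinase and fatty acid oxidation. FABP4 is a small protein of the cytosol that carries fatty acids inside the cell. In mouse and human fat cells both genes are switched on by the nuclear receptor PPARG during differentiation. FABP4 is also made by capillary endothelium and macrophages. In cattle muscle, fat cells lie between the fibres and bundles as marbling, and a biopsy of whole muscle holds a small and variable number of them.

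Gene counts per library lay between 20.8 M and 33.0 M (M, 1000000 counts), with a median of 25.6 M. ADIPOQ had 61 to 5345 counts and FABP4 18 to 4733 counts in a library, so both genes were detected in all 40 libraries. In 7 libraries only 10.0% to 11.2% of reads fell outside genes, against 13.3% to 18.7% in the other 33. These 7 were spread over all groups, with 2 in restricted bulls and 1 in control bulls of period 1, and 1 in previously restricted and 3 in control bulls of period 2. The count files pair no identifier with a gene name, so the muscle label and the fat cell label were not checked against further marker genes here.

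Late in restriction, both genes had a lower level in most restricted bulls, but neither difference passed the test. ADIPOQ lay between 2.61 and 56.4 counts per 1000000 gene counts (CPM) in restricted bulls of period 1, with a median of 4.58 CPM and a mean of 15.2 ± 19.3 CPM (SD, n = 10). In control bulls of period 1 it lay between 8.10 and 180.0 CPM, with a median of 25.3 CPM and a mean of 42.4 ± 52.0 CPM (SD, n = 10). The groups overlapped: 7 of 10 restricted bulls were below every control bull, and the other 3 were above the control median. The median was 5.53-fold and the mean 2.79-fold lower in restricted bulls. The fitted log2 fold change of ADIPOQ was -1.34 ± 0.68 (SE), with a 95% interval of -2.71 to 0.02 (edgeR adjusted p = 0.215). In whole muscle, fewer fat cells and less of these transcripts per fat cell cannot be told apart.

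FABP4 showed the same arrangement with a larger ratio of medians. It lay between 0.788 and 34.5 CPM in restricted bulls of period 1, with a median of 1.53 CPM and a mean of 9.80 ± 13.9 CPM (SD, n = 10). Its range was 2.59 to 159 CPM in control bulls of period 1, with a median of 14.2 CPM and a mean of 33.0 ± 48.0 CPM (SD, n = 10). Again 7 restricted bulls were below every control bull and 3 above the control median. The median was 9.30-fold and the mean 3.36-fold lower in restricted bulls. The fitted log2 fold change was -1.60 ± 0.81 (SE), with a 95% interval of -3.23 to 0.03 (edgeR adjusted p = 0.215).

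The restricted bulls of period 1 fell into separate clusters for both genes. Bulls 1, 5 and 6 had 38.6, 29.5 and 56.4 CPM of ADIPOQ, and the other 7 had 2.61 to 4.98 CPM. For FABP4 bulls 1, 5 and 6 had 29.2, 25.3 and 34.5 CPM, and the other 7 had 0.788 to 2.26 CPM. No library lay between these ranges.

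In this comparison 9.79% of the 12753 genes tested were called at an adjusted p under 0.05, and 0 of the 2 members were. An unadjusted p under 0.05 was found for 0 members by edgeR, 2 by DESeq2 and 2 by limma with voom, which weighs log values, and after adjustment 0 passed by any of them. The fitted sizes were large beside other genes: 0.823% of all genes had a more negative log2 fold change than ADIPOQ, and 0.416% a more negative one than FABP4. Control bull 4 alone held 180.0 CPM of ADIPOQ and 159 CPM of FABP4. Without its library the log2 fold changes were -0.66 for ADIPOQ and -0.75 for FABP4. From the 33 libraries with more reads outside genes alone they were -1.59 (edgeR adjusted p = 0.162) and -1.93 (adjusted p = 0.142).

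**Figure D1:**
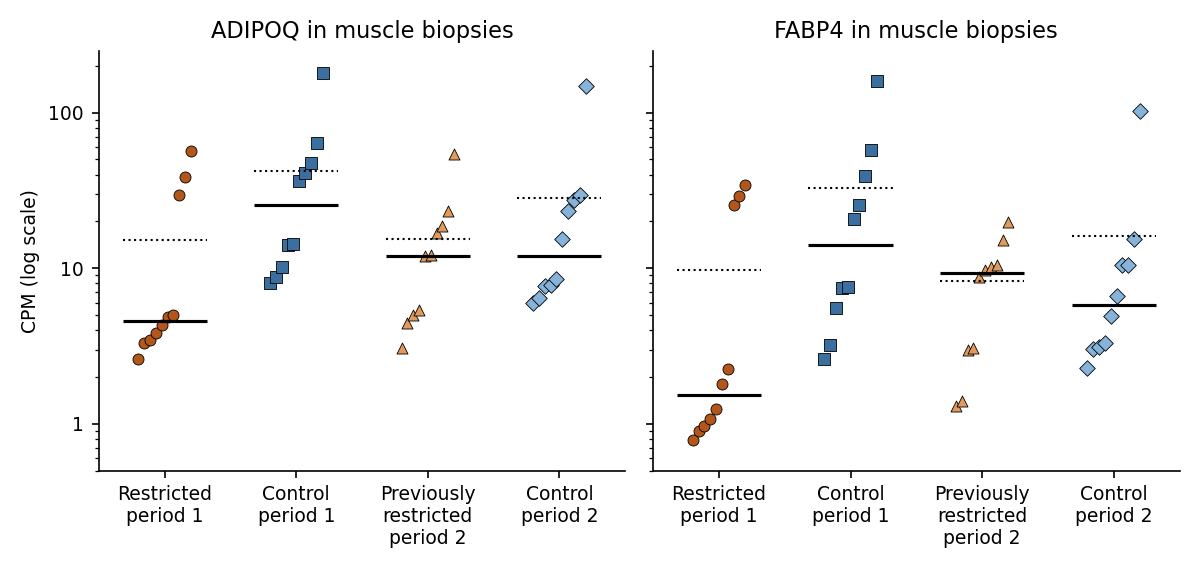
CPM of ADIPOQ and FABP4 on a log scale in the 10 libraries of each group, 1 point per library, with the median as a solid and the mean as a dotted line. In restricted bulls of period 1, 3 libraries stand at 29.5 CPM or more of ADIPOQ and the other 7 at 4.98 CPM or less.

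On day 15 of free feeding the groups overlapped more closely. ADIPOQ lay between 3.09 and 54.1 CPM in previously restricted bulls, with a median of 12.1 CPM and a mean of 15.5 ± 15.2 CPM (SD, n = 10). In control bulls of period 2 it lay between 5.94 and 149 CPM, with a median of 12.0 CPM and a mean of 28.1 ± 43.3 CPM (SD, n = 10). The medians were thus nearly the same, while the mean of the control group carried 1 library at 149 CPM. Of the 10 previously restricted bulls, 4 lay below every control bull and 5 above the control median. The fitted log2 fold change was -0.83 ± 0.67 (SE), with a 95% interval of -2.19 to 0.52 (edgeR adjusted p = 0.478).

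FABP4 had a higher median and a lower mean in previously restricted bulls. It lay between 1.31 and 19.7 CPM there, with a median of 9.26 CPM and a mean of 8.29 ± 6.16 CPM (SD, n = 10). In control bulls of period 2 it lay between 2.29 and 103 CPM, with a median of 5.78 CPM and a mean of 16.2 ± 30.7 CPM (SD, n = 10). Of the 10 previously restricted bulls, 2 lay below every control bull and 6 above the control median. The fitted log2 fold change was -0.94 ± 0.80 (SE), with a 95% interval of -2.56 to 0.68 (edgeR adjusted p = 0.505). Without control bull 6 the fitted values turned positive, to 0.06 for ADIPOQ and 0.30 for FABP4. With restricted bull 7 of period 2 and control bull 4 of period 1 left out as well, they were -0.43 and 0.04. The direction in period 2 thus depended on single libraries. Of all genes tested 7.2% were called in this comparison, and 0 of the 2 members were. For this comparison and for the 3 that follow, 0 members had an unadjusted p under 0.05 by edgeR or by DESeq2.

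Over time, from the restriction to day 15 of free feeding, neither gene passed the test in the restricted group. ADIPOQ was higher in period 2 in 7 of 10 restricted bulls. The change of a single bull ran from 0.300-fold in bull 6 to 10.9-fold in bull 7, with a median of 1.27-fold. FABP4 was also higher in period 2 in 7 of 10 restricted bulls, with changes from 0.296-fold in bull 6 to 15.8-fold in bull 7 and a median of 1.74-fold. For both genes the 3 bulls with a lower level in period 2 were bulls 1, 5 and 6. These 3 were singled out above by their high levels in period 1, and whether their fall went beyond that choice was not tested. In period 2 these bulls had 12.1, 12.0 and 16.9 CPM of ADIPOQ, against 38.6, 29.5 and 56.4 CPM in period 1.

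The median of ADIPOQ in the restricted group was 12.1 CPM in period 2 and 4.58 CPM in period 1, and that of FABP4 9.26 CPM in period 2 and 1.53 CPM in period 1. The means hardly differed, and the fitted changes follow the means. The log2 fold change of ADIPOQ was -0.09 ± 0.67 (SE), with a 95% interval of -1.44 to 1.27 (edgeR adjusted p = 0.948). That of FABP4 was -0.37 ± 0.80 (SE), with a 95% interval of -1.99 to 1.25 (edgeR adjusted p = 0.798). Of all genes tested 19.2% were called here, and 0 of the 2 members were. The direction depended on the fit. Blocking on the bull in edgeR (replicate block) gave log2 fold changes of 0.34 for ADIPOQ (adjusted p = 0.762) and 0.69 for FABP4 (adjusted p = 0.613). With limma and voom they were 0.44 (adjusted p = 0.696) and 0.86 (adjusted p = 0.524).

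In control bulls, fed freely at both times, the levels of single animals, as paired by their numbers, differed widely between the biopsies. ADIPOQ was higher in period 2 in 3 of 10 control bulls, with changes from 0.0862-fold in bull 4 to 17.0-fold in bull 6. Bull 4 had 15.5 CPM in period 2 against 180.0 CPM in period 1, and bull 6 had 149 CPM in period 2 against 8.76 CPM in period 1. FABP4 was higher in period 2 in 4 of 10 control bulls, with changes from 0.0310-fold in bull 4 to 39.7-fold in bull 6. These are the same animals at the extremes of both genes.

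The fitted log2 fold change over time in control bulls was -0.60 ± 0.66 (SE) for ADIPOQ, with a 95% interval of -1.94 to 0.74 (edgeR adjusted p = 0.583). For FABP4 it was -1.03 ± 0.79 (SE), with a 95% interval of -2.63 to 0.57 (edgeR adjusted p = 0.424). Of all genes tested 0.0392% were called in this comparison, and 0 of the 2 members were. Without control bull 4 in period 1 the values were 0.07 for ADIPOQ and -0.21 for FABP4. Without control bull 6 in period 2 they were -1.47 and -2.26.

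The interaction asked whether the change over time differed between the feeding groups. It was 0.51 ± 0.94 (SE) log2 units for ADIPOQ, with a 95% interval of -1.39 to 2.41 (edgeR adjusted p = 0.788). For FABP4 it was 0.66 ± 1.12 (SE), with a 95% interval of -1.60 to 2.93 (edgeR adjusted p = 0.769). Of all genes tested 6.37% were called, and 0 of the 2 members were. Blocking on the bull (replicate block) gave 1.18 for ADIPOQ (edgeR adjusted p = 0.453) and 1.96 for FABP4 (adjusted p = 0.331), and limma with voom gave 1.17 and 1.94 (adjusted p = 0.45 and 0.303). Without control bull 4 in period 1 both values turned negative, to -0.17 and -0.18. Without control bull 6 in period 2 they were 1.38 and 1.89. The 5 comparisons share libraries, so their values are not independent of each other.

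**Figure D2:**
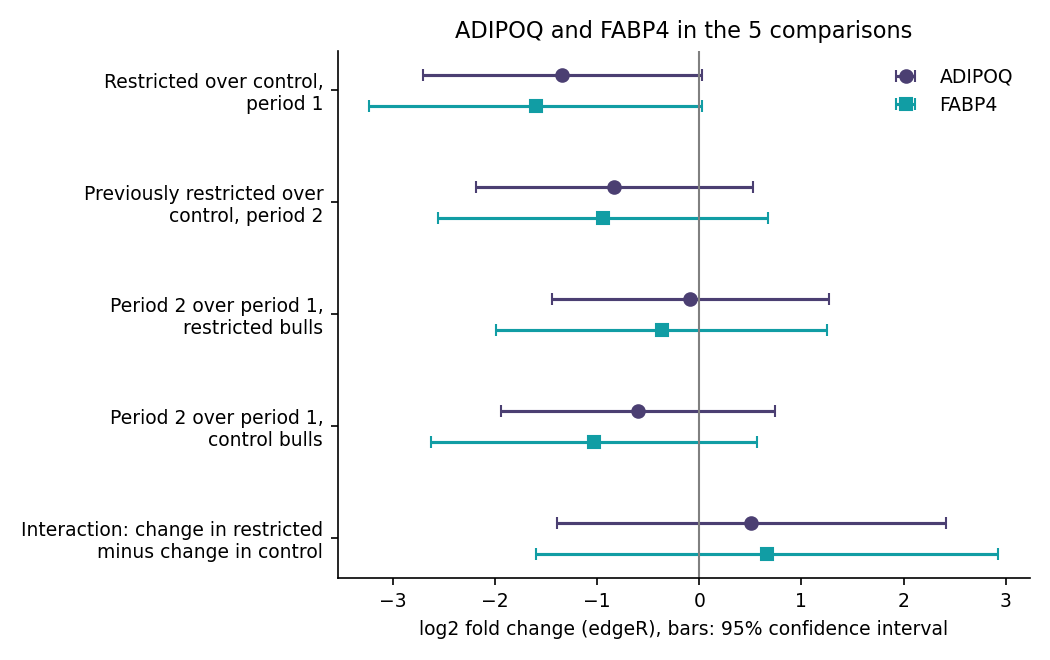
Fitted log2 fold changes of ADIPOQ and FABP4 with 95% confidence intervals in the 5 comparisons, in the direction written beside each. All 10 intervals include 0. Those of restricted over control bulls in period 1 end closest to it, at 0.02 for ADIPOQ and 0.03 for FABP4.

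Set in order of the mean, ADIPOQ was lowest in restricted bulls of period 1 at 15.2 CPM, next in previously restricted bulls of period 2 at 15.5 CPM, then in control bulls of period 2 at 28.1 CPM, and highest in control bulls of period 1 at 42.4 CPM. By its mean, FABP4 began with previously restricted bulls of period 2 at 8.29 CPM, followed by restricted bulls of period 1 at 9.80 CPM, control bulls of period 2 at 16.2 CPM and control bulls of period 1 at 33.0 CPM. By the median the order was another one: FABP4 had 1.53 CPM in restricted bulls of period 1, 5.78 CPM in control bulls of period 2, 9.26 CPM in previously restricted bulls of period 2 and 14.2 CPM in control bulls of period 1. No neighbours in the order of means passed the test. For ADIPOQ the neighbours in the middle, previously restricted and control bulls of period 2, are given above. For FABP4 the neighbours in the middle were restricted bulls of period 1 and control bulls of period 2, with a log2 fold change of -0.57 ± 0.80 (SE; edgeR adjusted p = 0.641), in a comparison where 22.3% of all genes were called. In the same edgeR fit the gap was wider between previously restricted bulls of period 2 and control bulls of period 1. It was -1.43 ± 0.68 (SE) for ADIPOQ (edgeR adjusted p = 0.224) and -1.97 ± 0.81 (SE) for FABP4 (adjusted p = 0.155). There 4.65% of all genes were called and 0 of the 2 members, although both had an unadjusted p under 0.05. The unadjusted edgeR p was 0.0407 for ADIPOQ and 0.0202 for FABP4, and 18.2% and 13.0% of all genes had lower ones. Without control bull 4 in period 1 the gap was -0.76 for ADIPOQ (edgeR adjusted p = 0.58) and -1.14 for FABP4 (adjusted p = 0.466), and neither unadjusted p was under 0.05. By limma with voom it was -1.19 and -1.29, narrower than the -1.64 and -2.16 between restricted and control bulls of period 1. Feeding and time both differ between those groups.

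The spread between animals of 1 group was the most marked property of both genes. The SD of log2 CPM within groups, pooled over the 4 groups, was 1.46 for ADIPOQ and 1.80 for FABP4, against a median of 0.349 over the 12753 genes. ADIPOQ was more variable than 99.5% and FABP4 more variable than 99.8% of the genes. By group, the SD of ADIPOQ was 1.68 in restricted and 1.43 in control bulls of period 1, and 1.24 in previously restricted and 1.44 in control bulls of period 2. That of FABP4 was 2.25 in restricted and 1.88 in control bulls of period 1, and 1.34 in previously restricted and 1.61 in control bulls of period 2. The 4 groups together accounted for 15.9% of the variance of ADIPOQ and 16.0% of that of FABP4 on the log2 scale, and for a median of 16.0% over all genes. The share of variance that lay between groups was therefore ordinary, while the variance within them was not. The standard errors reflect this: that of the log2 fold change in period 1 was 0.68 for ADIPOQ and 0.81 for FABP4, against a median of 0.155 over all genes.

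Within a group, both genes were high and low in the same animals. Among control bulls of period 1 the log2 CPM of ADIPOQ and FABP4 correlated with Pearson r = 0.977 (permutation p = 1e-05, the smallest 100000 resamples can give; adjusted p = 4e-05; n = 10) and Spearman rho = 0.952 (permutation p = 0.00017). These control bulls also left a gap, with no library between 14.4 and 36.3 CPM of ADIPOQ or between 7.54 and 20.8 CPM of FABP4. The same bulls stood above it for both genes, so r over all 10 includes this gap. The relation on each side of it was not tested. In previously restricted bulls of period 2 r was 0.945 (permutation p = 1e-05; adjusted p = 4e-05; n = 10) and rho 0.964 (permutation p = 3e-05). Among control bulls of period 2 r was 0.964 (permutation p = 0.00016; adjusted p = 0.000427; n = 10) and rho 0.952 (permutation p = 0.00017). Without the 2 libraries farthest from the ADIPOQ median, r was 0.986, 0.943 and 0.87 in these groups, in the order given (exact permutation p = 0.000124, 0.000273 and 0.0068, n = 8). The relation did not rest on those libraries.

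In restricted bulls of period 1, where the bulls fell into clusters, no value over all 10 is given. The relation was taken within the 7 bulls with low levels, a split made after seeing the data and on the levels themselves, which narrows their range. There r was 0.743 (exact permutation p = 0.0565; adjusted p = 0.113; n = 7) and rho 0.857 (exact permutation p = 0.0238). Without the 2 bulls farthest from the median r was 0.689 (exact permutation p = 0.175, n = 5). These 7 libraries spanned 2.61 to 4.98 CPM of ADIPOQ. The p-values of Pearson's r are adjusted over 8 correlations, 4 of this kind and 4 between the times. The 3 that involve restricted bulls of period 1 enter with their value in the 7 bulls, in place of the value over all 10 that was computed first.

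**Figure D3:**
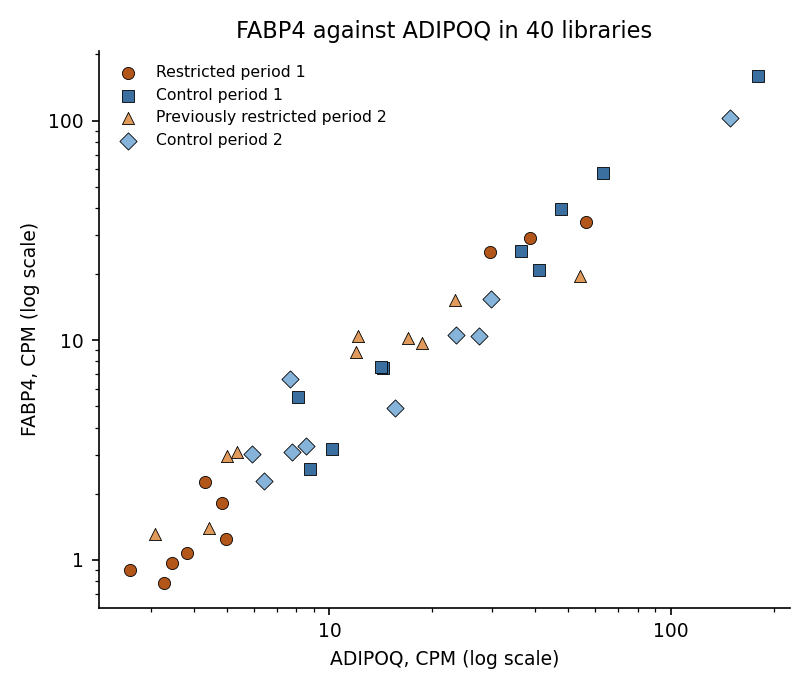
FABP4 against ADIPOQ in the 40 libraries, both in CPM on log scales, 1 point per library and a symbol for each group. The points form 1 narrow band from 2.61 to 180.0 CPM of ADIPOQ, and the 7 restricted bulls with low levels in period 1 sit at its lower end.

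FABP4 had a larger SD of log2 CPM than ADIPOQ in every group, but not always a wider range. In previously restricted bulls of period 2 the highest level was 15.0-fold the lowest for FABP4 and 17.5-fold for ADIPOQ. The slope of log2 FABP4 on log2 ADIPOQ was 1.32 in restricted and 1.28 in control bulls of period 1, and 1.02 in previously restricted and 1.08 in control bulls of period 2. The ratio of their counts is free of library scaling and was used to ask whether both genes moved by the same amount. CPM is not corrected for transcript length, so only changes of this ratio are read. In restricted bulls of period 1 the ratio was 0.24 to 0.523 in the 7 bulls with low levels and 0.612 to 0.858 in the other 3.

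In the restricted group the mean log2 ratio of FABP4 to ADIPOQ was -0.88 ± 0.44 in period 2 and -1.27 ± 0.66 in period 1 (SD, n = 10 each). The ratio was higher in period 2 in 8 of 10 bulls, by 0.40 ± 0.38 log2 units (mean ± SD of the changes), or 1.32-fold (exact sign-flip permutation test, two-sided p = 0.0117; adjusted p = 0.0469 over 4 comparisons). Leaving out 1 bull at a time, the change stayed positive at 0.32 to 0.46, but the adjusted p was above 0.05 in 8 of 10 cases (0.0312 to 0.0938, exact permutation). The call thus did not hold without any 1 of those 8 bulls, with 9 bulls left in the test. In control bulls it was higher in 3 of 10 animals, with a mean change of -0.32 log2 units (exact permutation p = 0.26; adjusted p = 0.275). Whether the change of the ratio differed between the feeding groups was not tested. In period 1 the mean log2 ratio was -1.27 in restricted and -0.78 in control bulls, a difference of -0.49 (permutation p = 0.0954; adjusted p = 0.191). In period 2 it was -0.88 in previously restricted and -1.10 in control bulls, a difference of 0.22 (permutation p = 0.275; adjusted p = 0.275).

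With 10 control and 7 restricted bulls, the tests could not settle whether a bull's level in one biopsy followed its level in the other. In control bulls the log2 CPM of ADIPOQ in period 2 and period 1 had r = -0.295 (permutation p = 0.413; adjusted p = 0.413; n = 10) and rho = -0.236 (permutation p = 0.512). For FABP4 r was -0.53 (permutation p = 0.113; adjusted p = 0.181; n = 10) and rho -0.406 (permutation p = 0.247). Without the 2 bulls farthest from the period 1 median r was -0.579 for ADIPOQ (exact permutation p = 0.127, n = 8) and -0.77 for FABP4 (exact permutation p = 0.0175, n = 8). The control bulls were kept together here despite the gap in their period 1 levels. For the restricted group the split described above was used, again with no value over all 10 bulls. In its 7 bulls with low levels in period 1, r was 0.606 for ADIPOQ (exact permutation p = 0.155; adjusted p = 0.207; n = 7) and 0.52 for FABP4 (exact permutation p = 0.248; adjusted p = 0.283; n = 7). There rho was 0.643 for ADIPOQ (exact permutation p = 0.139) and 0.679 for FABP4 (exact permutation p = 0.11). Without the 2 bulls farthest from the median, r in these bulls was 0.926 for ADIPOQ (exact permutation p = 0.0417, n = 5) and 0.851 for FABP4 (exact permutation p = 0.05, n = 5). None of these 4 relations passed the adjusted threshold with all of their bulls.

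**Figure D4:**
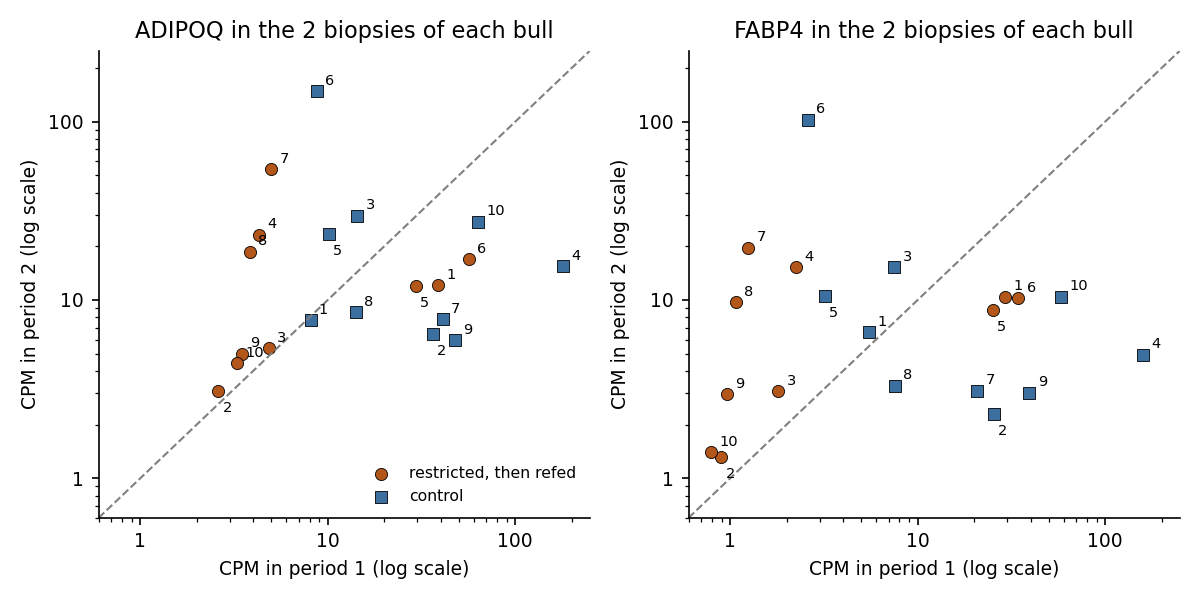
CPM of each bull in period 2 against its CPM in period 1 on log scales, with the bull's number beside its point and a dashed line where both are equal. Control bull 6 lies far above the line at 149 CPM of ADIPOQ in period 2 and control bull 4 far below it at 180.0 CPM in period 1. For FABP4 these bulls are at the extremes too. Control bull 1 lies below the line for ADIPOQ and above it for FABP4.

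Across the transcriptome each gene was among the closest companions of the other. Likeness was measured as the correlation, over the 40 libraries, of the deviations of log2 CPM from the group means. It therefore used only differences among bulls of the same group. The values of a library share its depth and scaling. Of 12752 other genes, FABP4 was the most like ADIPOQ and ADIPOQ the most like FABP4, at r = 0.969. The median r over all genes was 0.01 with ADIPOQ and 0.02 with FABP4. Above r = 0.8 stood 31 genes for ADIPOQ and 31 for FABP4, or 0.243% of the genes in each case. The 10 genes most like ADIPOQ had r of 0.899 to 0.969, and the 10 most like FABP4 0.917 to 0.969. Beside the members themselves, 8 genes stood in both lists. Without the 3 restricted bulls with high levels in period 1 and the 3 libraries far above their group, r between the members was 0.935 over 34 libraries. FABP4 was then still ranked 1 for ADIPOQ, and ADIPOQ ranked 2 for FABP4. With a term for the 7 libraries with fewer reads outside genes removed, r was 0.97 over 40 libraries, FABP4 was ranked 1 for ADIPOQ and ADIPOQ ranked 5 for FABP4.

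The 10 other genes in these lists are given by identifier only in the files and are not paired with names. ENSBTAG00000011666 was the closest of them to FABP4, at r = 0.965 (0.916 with ADIPOQ). In period 1 all 10 had a negative log2 fold change between restricted and control bulls, with a median of -1.72 and a range of -3.28 to -0.81, where 55.9% of all genes were negative and their median was -0.04. The 1 gene of the 10 that passed the test was ENSBTAG00000010564, at r = 0.917 with FABP4. Its level was lower in restricted than in control bulls, by 3.28 on the log2 scale (edgeR adjusted p = 0.0024). Among all genes tested the share called in period 1 was 9.79%. Of the 10 genes, 8 had an unadjusted p under 0.05 by edgeR there. The share of all genes under that unadjusted threshold is not given, for this comparison or for those below. The 10 genes were also picked for their likeness to the members in these same libraries. Their unadjusted counts therefore cannot show an excess over other genes. In period 2 all 10 were negative between previously restricted and control bulls, with a median of -1.16, and 0 were called by edgeR (2 at an unadjusted p under 0.05). Of all genes tested 53.8% were negative there and 7.2% were called. Over time 7 of 10 were negative in restricted bulls, with a median of -0.24, and 10 of 10 in control bulls, with a median of -0.65. Among all genes 48.1% were negative over time in restricted and 49.7% in control bulls. Of the 10 genes, 0 were called by edgeR over time in either group. An unadjusted p under 0.05 was found for 1 of them in restricted and 0 in control bulls. The shares called among all genes were 19.2% in restricted and 0.0392% in control bulls. The same libraries are high for all of these genes, so their values are not 10 separate observations.

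**Figure D5:**
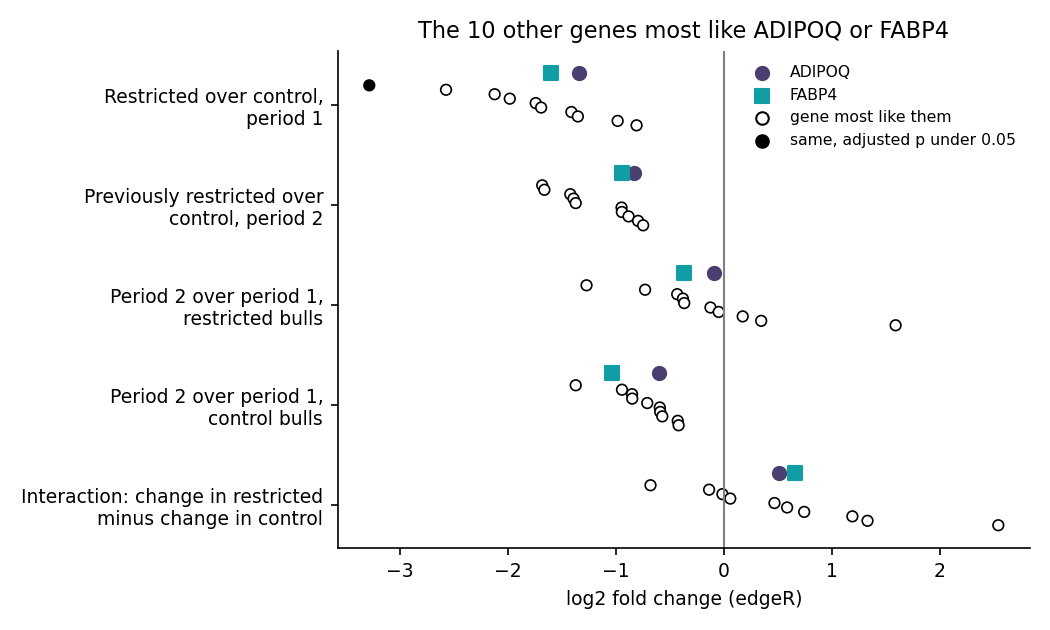
Log2 fold changes of the 10 other genes whose deviations from the group means were most like those of ADIPOQ or FABP4, as circles spread over the height of each comparison, with the members above them. In restricted over control bulls of period 1 all 10 lie left of 0, from -3.28 to -0.81, and 1 is filled as called.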

How the data were processed

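Messenger RNA of muscle biopsies was sequenced from single-end TruSeq libraries, per the labels' protocols. Assembly UMD3.1 and the tools TopHat, HTSeq, edgeR and CASAVA 1.4 are listed per the submitters' processing notes. Their roles and the annotation and strand settings were not given in the sources used here, so reads of a gene and of an overlapping antisense transcript cannot be told apart. The authors deposited raw read counts per gene, with 92 spike-in entries at 0 in all libraries. Entries without a gene were excluded from library sizes and tests; reads outside genes were 10.0% to 18.7% and ambiguous reads 0.584% to 1.40%. The authors' normalised values were not used. The names of both members came with their identifiers. The other symbols of 16 gene lists could not be matched, because 0 identifiers are paired with a symbol, so these lists were not tested and at most 2 further identifiers are printed, chosen from the 10 genes most like each member. Members and lists were chosen with earlier results of these data known.

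edgeR 4.0.16 in R 4.3.3 fitted 4 group means to all 40 libraries without a block (TMM scaling, filterByExpr with minimum count 10 and total 15, robust quasi-likelihood F test), and p-values were adjusted over 12753 genes by Benjamini-Hochberg at 0.05. Both members passed the filter. A fit of the same kind to the 2 groups of period 1 alone was run on simulated data. That run did not cover the fit of 4 groups and did not single out the members. Standard errors came from the F statistics. CPM are over all gene counts; log2 CPM for correlations and spread used TMM and a prior count of 2. Ratios used 1 added count. Permutation tests (Python 3.11.15, NumPy 2.4.6) used 100000 resamples, or all arrangements below 10 values. Alternatives were DESeq2 1.42.0, limma 3.58.1 with voom, other scalings and filters, covariates, blocks, and each library left out. Intervals come from the fit and are for differences of group means. Their width reflects the spread between bulls, but they are not ranges of single bulls. Without a block, the fit treats the 2 biopsies of a bull as independent.

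The title numbers were taken to mark the same bull at both times, since the growth protocol in the labels gives 20 bulls (the treatment protocol gives 20 in each feeding group) and the later library's second code number is apart from the earlier by 30 in all 20 pairs. Deviations from the group means correlated across genes above 0.1 in 7 of 10 restricted and 8 of 10 control pairs, with lowest values of -0.229 and -0.135. Once a term for the 7 libraries under 12% outside genes was removed, all 10 and 10 were above 0.1. The numbered partner was the closest match in 7 and 7 restricted pairs, searched from period 1 and from period 2. In control pairs it was the closest in 4 and 2. With the term removed these counts were 10 and 10 in restricted and 5 and 8 in control pairs. For control bulls this check alone does not settle the pairing.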

Additional observations from a re-analysis of the deposited data

Results flagged for a closer look

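Single libraries far above the rest of their group were found by comparing the gap to the nearest library with the range of the group. Among 24 sets of 10 values examined, 6 were past the critical value of 0.466, and 5 of these 6 were among the 8 sets of CPM values. By chance the critical value is passed in about 1 in 20 sets of normally distributed values. Most sets of CPM values were skewed, and the sets share libraries, so the number past it cannot be read against that rate. Bull 4 of the control group in period 1 had 180.0 CPM of ADIPOQ and 159 CPM of FABP4, and the next bull had 63.4 and 57.9 CPM. Bull 6 of the control group in period 2 had 149 CPM of ADIPOQ and 103 CPM of FABP4, and the next bull had 29.8 and 15.3 CPM. On the log2 scale this bull also stood apart for FABP4, at 6.59 against 4.0 for the next. On that scale control bull 4 in period 1 and restricted bull 7 in period 2 were not past the critical value for either gene, nor was control bull 6 for ADIPOQ, whose gap was 0.465 of the range. In previously restricted bulls of period 2, bull 7 had 54.1 CPM of ADIPOQ, and the next bull had 23.3 CPM. All 3 libraries had more than 12% of reads outside genes. Left out together, they gave log2 fold changes of -0.66 for ADIPOQ and -0.75 for FABP4 between restricted and control bulls of period 1, and -0.43 and 0.04 between previously restricted and control bulls of period 2, with 0 of the 2 members called.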

How the results depend on the processing

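No alternative called either member in any of the 5 comparisons. Over 187 fits, the lowest adjusted p of a member was 0.0808, for FABP4 in period 1 by limma with voom. Directions turned as follows, and the cause was not tested. Over time in restricted bulls, ADIPOQ was 0.035 with total counts, 0.056 with the first number of the code fitted as a factor, 0.17 from the 33 libraries, 0.34 with each bull as a replicate block and 0.44 with voom, with or without a random block. There FABP4 was 0.053 with the code number, 0.69 with the block and 0.86 with voom, with or without a random block. With the 3 far libraries left out, an alternative chosen after seeing the data, FABP4 was 0.044 between the groups of period 2. Between restricted bulls of period 1 and control bulls of period 2, ADIPOQ was then 0.15 and FABP4 0.67.

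Leaving out 1 library at a time gave ADIPOQ -1.84 to -0.66 and FABP4 -2.05 to -0.75 in period 1, -1.30 to 0.056 and -1.18 to 0.30 in period 2, -0.57 to 0.41 and -0.63 to 0.082 over time in restricted bulls, -1.47 to 0.068 and -2.26 to -0.21 over time in control bulls, and -0.17 to 1.38 and -0.18 to 1.89 for the interaction. Between restricted bulls of period 1 and control bulls of period 2 it gave -1.24 to 0.14 and -1.02 to 0.67, and between previously restricted bulls of period 2 and control bulls of period 1 -1.88 to -0.76 and -2.19 to -1.14. The log2 ratio of FABP4 to ADIPOQ in period 1 was -0.60 to -0.41 and passed an unadjusted 0.05 in 4 of 20 cases. In restricted bulls over time it was 0.32 to 0.46, and the adjusted p was above 0.05 in 8 of 10 cases.

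The correlation of the members in restricted bulls of period 1 is given within 7 bulls (0.743), a split made after seeing the data, because all 10 form separate clusters. That of ADIPOQ between the times in control bulls was 0.080 in bulls without the 7 libraries, against -0.295 in all 10. Called genes numbered 1249 in period 1, but 2207 with the code number, 2273 with the term for the 7 libraries and 2102 from the other 33. In period 2 they were 918, against 1413 with the term and 579 from the compared groups alone. Over time in restricted bulls they were 2443, against 3990 with the term. For the interaction they were 812, against 1630 with the code number. In control bulls they were 5, against 22 with DESeq2 size factors, 13 with total counts, 20 above a mean of 1 CPM, 8 with the code number, 33 with the term, 90 from the 33 libraries, 29 without the 3 far libraries, 3 from the compared groups, 3 with each bull as a replicate block, 10 with a random block and 118 by DESeq2. Leaving out 1 library gave 567 to 1363 in period 2, 2 to 298 in control bulls and 641 to 1318 for the interaction.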
